A study of Mus musculus with 26 samples.

Results

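The MCM helicase family was read in single blastomeres of mouse 8-cell embryos as the 9 genes Mcm2 to Mcm10, which were chosen by symbol from the 55487 genes of the deposited expression table. All 9 were in that table, and all 9 had a mean above 1 TPM (transcripts per 1000000, a level per length). The cells came from 2 embryos made by in vitro fertilization in the C57BL/6 background, with no mutation, treatment or transgene in the labels, and each blastomere gave both a DNA and a total RNA library (scRR-seq, which traps genomic DNA on beads while the RNA stays in the lysis buffer). Of 13 labelled blastomeres, 6 of embryo 1 and 7 of embryo 2, the 9 with columns in the tables were used, 3 of embryo 1 and 6 of embryo 2. Every embryo is 1 biological replicate, so no test between embryos was possible, and every difference is set against the SD between cells.

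Mcm2 to Mcm7 encode the subunits of the ring that unwinds DNA ahead of the replication fork. The ring is loaded on origins as an inactive double hexamer in G1 phase, with the origin recognition complex, Cdc6 and Cdt1, and it becomes active in S phase when Cdc45 and the GINS complex bind to it. Mcm8 and Mcm9 form a separate hexamer known for its part in homologous recombination and in the germ line. Mcm10 is not a ring subunit but a fork protein, which is needed for the loaded helicase to fire. In somatic cells many MCM genes are transcribed through E2F sites, whereas an early embryo starts with transcripts and proteins stored in the oocyte.

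The promoters of the family are shown first because MCM genes are known as E2F targets in somatic cells. RefSeq promoter windows (GRCm38.p6, the mm10 build of the files) were given for 8 of the 9 members, all but Mcm4. Mcm7 had 2 windows, so 9 windows of 250 bases before a RefSeq start site were searched on both strands. The E2F-type words TTTCGCGC, TTTGGCGC, TTTCCCGC and TTTGGCGG were found in the windows of 3 members, Mcm5, Mcm6 and Mcm7, while 1.96% of all 32851 promoter windows held at least 1 of them. The word CCAAT, known as the core of the NF-Y site, was found in all 9 windows and in 33.8% of all windows. TATAAA was found in none of the 9 windows and in 12.4% of all. The windows that hold an E2F-type word are printed 5′ to 3′ on the strand of the gene, with the E2F-type words and CCAAT, on either strand, in capitals.
Mcm5, chr8:75109259-75109508, plus strand: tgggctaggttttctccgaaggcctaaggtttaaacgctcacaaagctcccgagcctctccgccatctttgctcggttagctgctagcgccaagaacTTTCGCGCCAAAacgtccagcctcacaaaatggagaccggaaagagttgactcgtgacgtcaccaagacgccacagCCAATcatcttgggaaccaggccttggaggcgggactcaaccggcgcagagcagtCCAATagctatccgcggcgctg
Mcm6, chr1:128359706-128359955, minus strand: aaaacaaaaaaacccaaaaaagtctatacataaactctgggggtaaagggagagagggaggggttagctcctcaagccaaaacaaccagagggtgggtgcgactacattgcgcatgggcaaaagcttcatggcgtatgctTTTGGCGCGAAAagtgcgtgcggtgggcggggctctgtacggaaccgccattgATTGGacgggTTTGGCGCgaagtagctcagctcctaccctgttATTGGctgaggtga
Mcm7, chr5:138171884-138172133, minus strand: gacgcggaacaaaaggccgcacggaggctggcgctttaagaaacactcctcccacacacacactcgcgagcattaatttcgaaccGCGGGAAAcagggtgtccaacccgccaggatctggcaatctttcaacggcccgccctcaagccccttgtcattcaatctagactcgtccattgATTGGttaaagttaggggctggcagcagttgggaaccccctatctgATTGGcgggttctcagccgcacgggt
In Mcm5 the word TTTCGCGC, starting 153 bases before the start site, overlaps TTTGGCGC on the other strand. In Mcm6 the same pair overlaps 110 bases before the start site, and a further TTTGGCGC stands 47 bases before it. The Mcm7 window holds TTTCCCGC on the other strand, and the other Mcm7 window holds CCAAT only. Both Mcm7 windows lie inside the gene as GENCODE annotates it. Its main coding transcript Mcm7-201 starts at chr5:138172422, so the TTTCCCGC match lies downstream of that start. The Mcm9 window likewise lies inside the GENCODE gene. A match of letters is a description and not a site of binding.

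The cells were checked before their MCM values were read. All 6 markers of the 8-cell blastomere were above 1 TPM in every cell, with summed levels from 1820 to 3261 TPM. Of the 6 cumulus or granulosa markers 4 were listed at 0 in every cell and the sum reached at most 0.56 TPM, and of the 6 sperm markers 4 were at 0 in every cell and the sum reached at most 1.62 TPM. The 6 oocyte genes had summed levels of 41.4 to 49.5 TPM in the cells of embryo 1, and those of embryo 2 had 17.9 to 60.5 TPM. The RNA columns carry the same embryo and cell in every header and were assigned by the number that closes each title. Xist was between 139.95 and 180.7 TPM in the 3 columns assigned to embryo 1 and at most 0.90 TPM in the 6 assigned to embryo 2.

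The replicated share of the genome, the percentage of 40-kb bins called replicated among bins with a call, came to 3.54, 0.927 and 0.00385% in cells 1, 6 and 7 of embryo 1. The embryo 2 cells 2, 3, 5, 6, 7 and 8 came to 77.8, 74.2, 76.9, 62.4, 80.5 and 78.7%. Embryo, position in the cell cycle and the difference in Xist cannot be told apart, and the paper did not take embryo sex into account. A cell with 1 copy number throughout may lie before or after S phase. The sample numbers fell into a range from 11 to 17 (embryo 1 cell 1, embryo 2 cells 2 and 3) and one from 20 to 25 (the other 6 cells), and the sample list of the study gives the lysis protocol scRR3 to the first and scRR1, with a smaller lysis volume, to the second. Cells of the lower range had between 12411 and 13319 genes above 1 TPM and those of the upper range between 11058 and 11960, so each comparison below is given for the embryos and for the ranges.

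Among the ring genes, Mcm3 had the highest mean at the gene level and Mcm6 followed. Mcm3 (mm10 with the GENCODE M21 annotation, chr1:20802968-20820312, minus strand) measured 96.95, 203.5 and 258.1 TPM in cells 1, 6 and 7 of embryo 1. In cells 2, 3, 5, 6, 7 and 8 of embryo 2 it measured 134.2, 213.95, 145.8, 97.4, 269.1 and 146.5 TPM. The lowest and the highest cell differed 2.78-fold, and the cells of both embryos covered the same levels. Mcm6 (chr1:128331590-128359664, minus strand) measured 145.3, 189.2 and 105.5 TPM in the embryo 1 cells, and those of embryo 2 measured 145.9, 132.7, 81.3, 90.1, 115.6 and 118.6 TPM, in the same cell order. It varied less between cells than the other ring genes, with an SD of 0.37 on the log2(TPM + 1) scale over the 9 cells.

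The other 4 ring genes lay lower. Mcm2 (chr6:88883474-88898780, minus strand) measured 68.1, 54.5 and 23.9 TPM in the embryo 1 cells, and those of embryo 2 measured 113.6, 83.0, 46.7, 41.2, 63.2 and 45.8 TPM. Mcm5 (chr8:75109569-75128439, plus strand) measured 98.6, 33.8 and 44.1 TPM in the embryo 1 cells, and those of embryo 2 measured 78.2, 79.5, 44.2, 36.5, 27.0 and 33.3 TPM. In both genes the 3 cells numbered 11 to 17 were above all 6 others. Mcm7 (chr5:138164583-138172422, minus strand) measured 58.1, 48.4 and 80.1 TPM in the embryo 1 cells, and those of embryo 2 measured 90.0, 109.8, 61.9, 47.5, 61.0 and 50.1 TPM. Mcm4 (chr16:15623897-15637400, minus strand) measured 54.1, 94.3 and 43.8 TPM in the embryo 1 cells, and those of embryo 2 measured 42.2, 41.9, 21.6, 30.6, 107.4 and 28.8 TPM. Its highest values came from 1 cell of each embryo, embryo 1 cell 6 and embryo 2 cell 7. Mcm7 also hosts the miRNA genes Mir106b, Mir93 and Mir25 in an intron, and all 3 were listed at 0 TPM in every cell.

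Mcm8 and Mcm9 lay far below the ring genes and were detected unevenly. Mcm8 (chr2:132816141-132844197, plus strand) measured 5.85, 17.7 and 4.14 TPM in the embryo 1 cells, and those of embryo 2 measured 4.08, 1.88, 4.94, 4.37, 5.37 and 0.39 TPM. Mcm9 (chr10:53536315-53630439, minus strand) measured 7.75, 0 and 2.77 TPM in the embryo 1 cells, and those of embryo 2 measured 5.51, 3.48, 6.12, 3.01, 10.9 and 6.90 TPM. The cell with the highest Mcm8 was the cell in which Mcm9 was listed at 0. Mcm9 overlaps the histone chaperone gene Asf1a on the other strand by 12469 bases, and Asf1a was between 44.6 and 178.3 TPM. Whether counting used strand is not given in the sources used here, so reads of Mcm9 and of genes on the other strand may not have been told apart.

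Mcm10 (chr2:4989714-5012791, minus strand) was as abundant as the ring genes at the gene level. It measured 89.6, 75.2 and 74.04 TPM in the embryo 1 cells, and those of embryo 2 measured 125.0, 143.7, 63.6, 57.7, 86.4 and 77.2 TPM. The 3 cells of the lower number range again held the highest values.

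**Figure D1:**
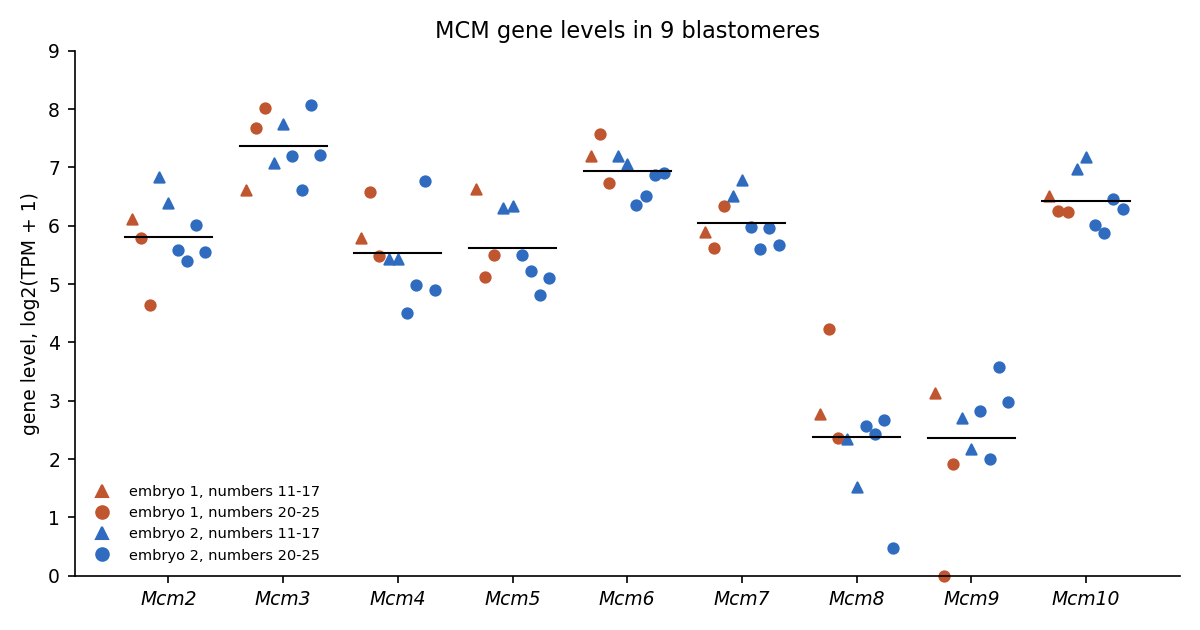
Gene level of each MCM gene on the log2(TPM + 1) scale in the 9 blastomeres, with embryo by colour and number range by symbol, and with the mean over 9 cells as a line. Mcm3, Mcm6 and Mcm10 lie highest and Mcm8 and Mcm9 lowest, and the triangles of Mcm2, Mcm5 and Mcm10 lie above the circles.

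In the order of mean log2(TPM + 1), Mcm3 at 7.36 was followed by Mcm6 at 6.93, Mcm10 at 6.42, Mcm7 at 6.04, Mcm2 at 5.81, Mcm5 at 5.61, Mcm4 at 5.54, Mcm8 at 2.37 and Mcm9, its 0 included, at 2.37. The step from Mcm6 to Mcm10, 0.52 with an SD of 0.39 over the cells, was larger than its spread, as were the steps from Mcm10 to Mcm7 and from Mcm4 to Mcm8. The last of these, 3.16 with an SD of 0.83, was seen in 9 of 9 cells. Mcm3 and Mcm6 did not differ beyond their spread (0.43, SD 0.62), nor did the neighbours Mcm7, Mcm2, Mcm5 and Mcm4, nor Mcm8 and Mcm9. The mean levels ranked Mcm3 as gene 822, Mcm6 as gene 1129 and Mcm10 as gene 1556 of the table.

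Over all 9 cells, most of the TPM of Mcm3 and Mcm10 was assigned to transcripts that are not annotated as protein-coding. The main coding transcript Mcm3-201 (3031 bases) measured 48.1, 30.6 and 23.9 TPM in cells 1, 6 and 7 of embryo 1 and, in those of embryo 2, 81.4, 79.8, 39.98, 12.5, 65.0 and 28.7 TPM. The retained-intron transcript Mcm3-203, a model of 716 bases that ends 38 bases from the 3′ end of the gene, measured 28.3, 172.0 and 234.2 TPM in the embryo 1 cells, and those of embryo 2 measured 42.4, 104.5, 105.9, 77.5, 204.1 and 117.8 TPM. Mcm3-203 was above Mcm3-201 in 7 of 9 cells, and the exceptions, embryo 1 cell 1 and embryo 2 cell 2, both belonged to the lower number range. In Mcm10 the retained-intron transcript Mcm10-204 (1343 bases) lies in the 3′ part of the gene and was between 37.7 and 92.0 TPM. It was above the coding transcript Mcm10-201 (3494 bases), listed between 0 and 55.0 TPM, in 9 of 9 cells.

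Over all 9 cells the coding transcripts held 26.2% of the TPM of Mcm3 and 24.9% of that of Mcm10. They held 72.1% of that of Mcm7 and between 92.5 and 100% of that of the other 6 genes. A coding share below 50% was therefore found in 2 members, Mcm3 and Mcm10, and among all protein-coding genes with both kinds of transcript it was found in 27.3% of 8395 genes. TPM divides by length, so short transcripts weigh more in it than in reads. With each transcript weighted by its length, as an approximation of its share of reads, the coding share was 60.1% for Mcm3 and 45.1% for Mcm10.

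The coding share of Mcm3 differed between the number ranges without overlap. It was 49.6, 60.7 and 37.3% in the cells numbered 11, 16 and 17 and between 9.27 and 27.4% in the 6 cells numbered 20 to 25. Of the 7 members with both kinds of transcript and a share in every cell, Mcm3 was the only one in which every cell of the lower range was higher, against 2.47% of 6443 genes. Over those genes the median share was 84.4% in the lower range and 84.5% in the upper. The Mcm10 share was between 27.1 and 44.8% in the lower range and between 5.37 and 27.7% in the upper, and the ranges overlapped. For these embryos the paper reports that scRR1 coverage leaned to the 3′ end of transcripts. The part that such coverage has in these shares was not tested.

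Mcm4 held a similar feature among coding transcripts. Mcm4-201 (3589 bases) was between 13.2 and 43.6 TPM in all cells. Mcm4-202, a coding model of 423 bases, was listed above 0 in 4 cells, at 58.5 TPM in embryo 1 cell 6, at 9.51 TPM in embryo 1 cell 7, at 12.8 TPM in embryo 2 cell 6 and at 67.1 TPM in embryo 2 cell 7. Both cells with high Mcm4 at the gene level were thus those with the most Mcm4-202, and on Mcm4-201 alone they were at 35.7 and 40.3 TPM, inside the range of the other cells.

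**Figure D2:**
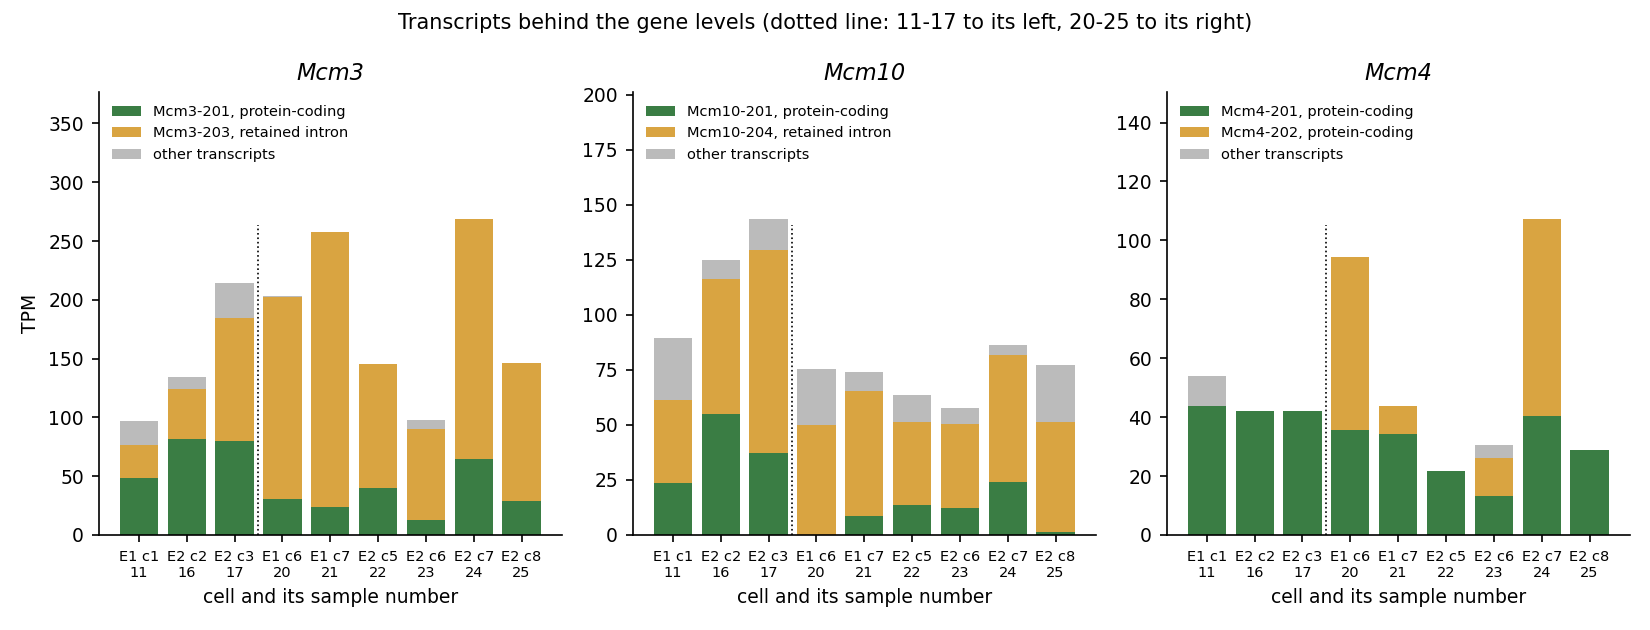
TPM of the main coding transcript, of 1 short transcript and of all other transcripts of Mcm3, Mcm10 and Mcm4 in each cell, ordered by sample number. Mcm3-203 exceeds Mcm3-201 in 7 cells, Mcm10-204 exceeds Mcm10-201 in 9, and Mcm4-202 is above 0 in 4.

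The summed level of Mcm2 to Mcm7 was 521.1, 623.7 and 555.5 TPM in embryo 1 and 604.1, 660.9, 401.5, 343.3, 643.4 and 423.1 TPM in embryo 2. Embryo 2 cell 6, the cell with the lowest replicated share in embryo 2, had the lowest sum, and the highest sum was in embryo 2 cell 3. Embryo 2 cell 6 also had the fewest genes above 1 TPM, 11058, and the most bins with no call, 1264. In the sum, Mcm3 had a mean share of 32.6% ± 8.78 (SD, n = 9 cells) and Mcm6 of 23.8% ± 4.57, and the other 4 genes had between 9.39 and 12.8%. The highest and the lowest ring gene of a cell differed from 2.69-fold to 10.8-fold.

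On coding transcripts alone the sum was 467.0, 450.0 and 267.9 TPM in embryo 1 and 506.2, 501.4, 276.9, 239.0, 419.9 and 283.6 TPM in embryo 2. All 3 cells numbered 11 to 17 were above the 6 others. Mcm6 then had a mean share of 33.4% and was above Mcm2, the next in order, in 9 of 9 cells, by 1.10 on the log2 scale with an SD of 0.58. From Mcm2 through Mcm5, Mcm7 and Mcm4 to Mcm3, the neighbours in that order did not differ beyond the spread, and Mcm3 fell to a mean share of 11.5%. Mcm10 then lay below Mcm3, the lowest ring gene in that order, by 1.17 with an SD of 0.77, in 8 of 9 cells. The highest and lowest ring gene of a cell differed between 3.01-fold and 7.20-fold on coding transcripts. That range was the same with coding transcripts of at least 2000 bases only, a limit set after the values were seen.

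**Figure D3:**
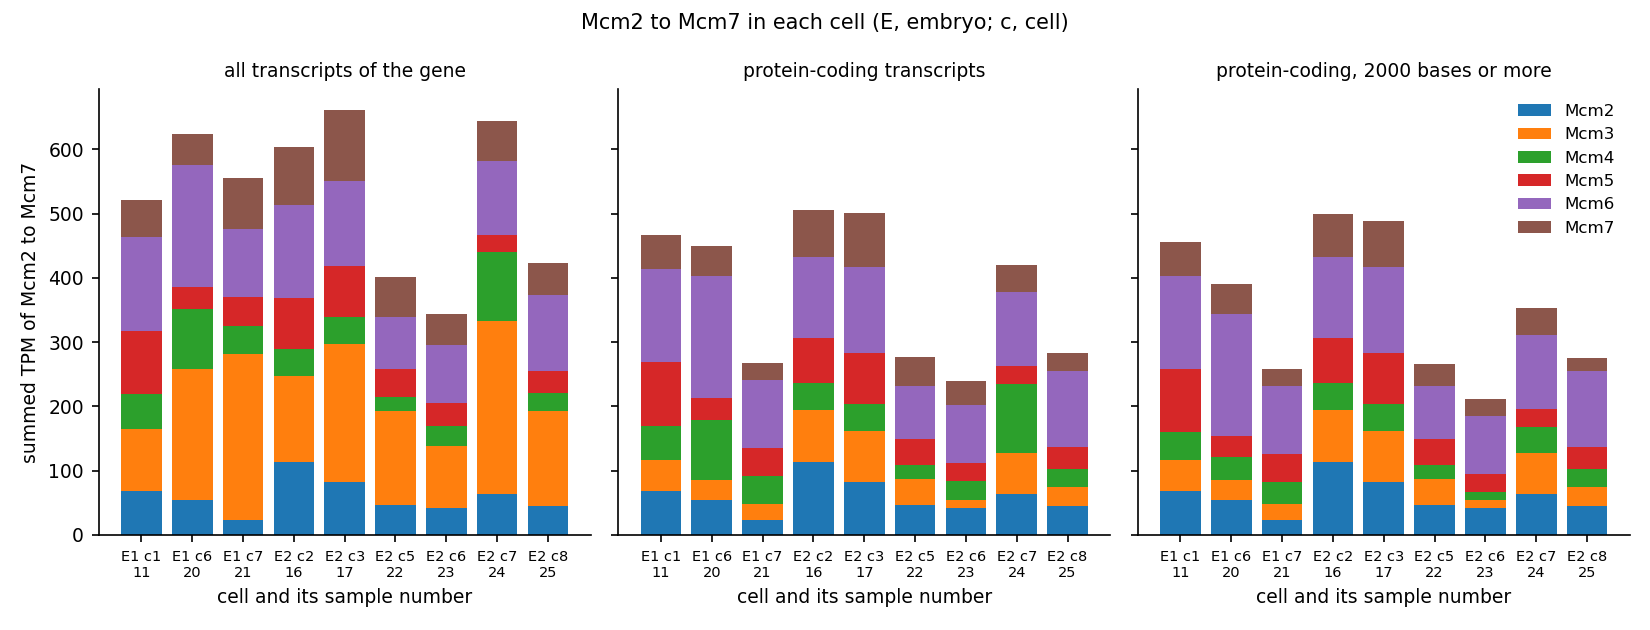
Summed TPM of Mcm2 to Mcm7 in each cell, stacked by gene, from all transcripts, from protein-coding transcripts and from protein-coding transcripts of at least 2000 bases. Mcm3 takes the largest mean share on the left and Mcm6 in the other panels, where the cells numbered 11, 16 and 17 have the highest sums.

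Between the embryos, the MCM genes were not separated. None of the 9 had all cells of one embryo above all cells of the other. Of 13648 genes with a mean above 1 TPM, 0.843% were higher in every embryo 2 cell and 2.51% lower. With shares this low, the lack of separation does not set the 9 genes apart from other genes. As the difference of embryo 2 from embryo 1 in mean log2(TPM + 1), the median over the 9 genes was -0.11, beside -0.04 over all genes, and 4 genes were higher and 5 lower. In 7 of 9 the pooled SD between cells exceeded the difference. Leaving out 1 cell separated 1 gene in 3 cases, Mcm9 without embryo 1 cell 1, Mcm8 without embryo 1 cell 7 and Mcm4 without embryo 2 cell 7. The summed Mcm2 to Mcm7 level differed by -0.19 with a pooled SD of 0.35. This difference was 0.28 within the numbers 11 to 17, where embryo 1 has 1 cell, and -0.42 within 20 to 25.

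Only Mcm8 and Mcm9 passed 1 log2 unit between embryos, and both were low. Mcm8 was lower in embryo 2 by -1.12 (pooled SD 0.89), where 10.7% of all genes were lower by that much, and Mcm9 was higher by 1.03 (pooled SD 0.97), where 7.69% were higher. Both rested on single cells. Mcm9 is listed at 0 in embryo 1 cell 6, and with a pseudocount of 0.1 TPM its difference was 2.09. Without embryo 1 cell 6 the differences were -0.57 for Mcm8 and 0.19 for Mcm9, and without embryo 2 cell 8 they were -0.81 and 0.97. Without embryo 2 cell 7 the Mcm9 difference was 0.86. The Mcm9 difference was -0.70 within the numbers 11 to 17 and 1.89 within 20 to 25.

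Several MCM levels differed between the number ranges. Mcm2, Mcm5 and Mcm10 were higher in each of the 3 cells numbered 11 to 17 than in each of the 6 numbered 20 to 25. That is 3 of 9 members, beside 6.13% of all genes and 9.06% of those with a mean above 10 TPM. No member was lower in every such cell, beside 1.24% of all genes. Mcm5 was higher by 1.22 (pooled SD 0.24), past 1 log2 unit as were 16.1% of all genes, and its difference was 1.33 within embryo 1 and 1.16 within embryo 2. Mcm2 was higher by 0.95 (pooled SD 0.44), by 0.89 within embryo 1 and 0.98 within embryo 2. When any 1 cell was left out, the Mcm2 difference lay between 0.76 and 1.12. It passed 1 log2 unit only without embryo 1 cell 1, embryo 1 cell 6 or embryo 2 cell 7. Mcm10 was higher by 0.70 (pooled SD 0.25), but by 0.26 within embryo 1, where the lower range has 1 cell, and by 0.92 within embryo 2. No member was lower by 1 log2 unit, beside 4.67% of all genes.

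These differences stood beside a shift of all genes, whose median was 0.29 higher in the lower range, and after median-of-ratios scaling the median over all genes was 0.07. Mcm5 alone was without overlap after this scaling, at 0.95, beside 3.00% of all genes, and also when only nuclear genes set the scale. With median-of-ratios scaling Mcm2 was at 0.69 and Mcm10 at 0.44, and the difference of the summed Mcm2 to Mcm7 level changed from 0.29 to 0.02. The mitochondrial share of TPM was between 5.98 and 6.82% in the lower range and between 4.28 and 18.2% in the upper, and its part in the differences was not tested.

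On coding transcripts the range difference changed most for Mcm3 and Mcm10. Mcm3 changed from -0.32 at the gene level to 1.16 on coding transcripts (pooled SD 0.68) and Mcm10 from 0.70 to 1.75 (pooled SD 0.70). Mcm7 changed from 0.53 to 0.88 and Mcm8 from -0.24 to -0.34. Mcm9 went the other way, from 0.45 to 0.12, as did Mcm6, from 0.33 to 0.26. The differences of Mcm2, Mcm4 and Mcm5 hardly changed. Mcm2, Mcm5, Mcm7 and Mcm10 were then without overlap, 4 of 9 members beside 7.65% of 9597 genes. With coding transcripts of at least 2000 bases Mcm4 was added, 5 of 9 beside 8.30% of 6119 genes. With those transcripts and median-of-ratios scaling together, Mcm5 and Mcm10 remained. The part that 3′ coverage under scRR1 has in these differences was not tested.

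**Figure D4:**
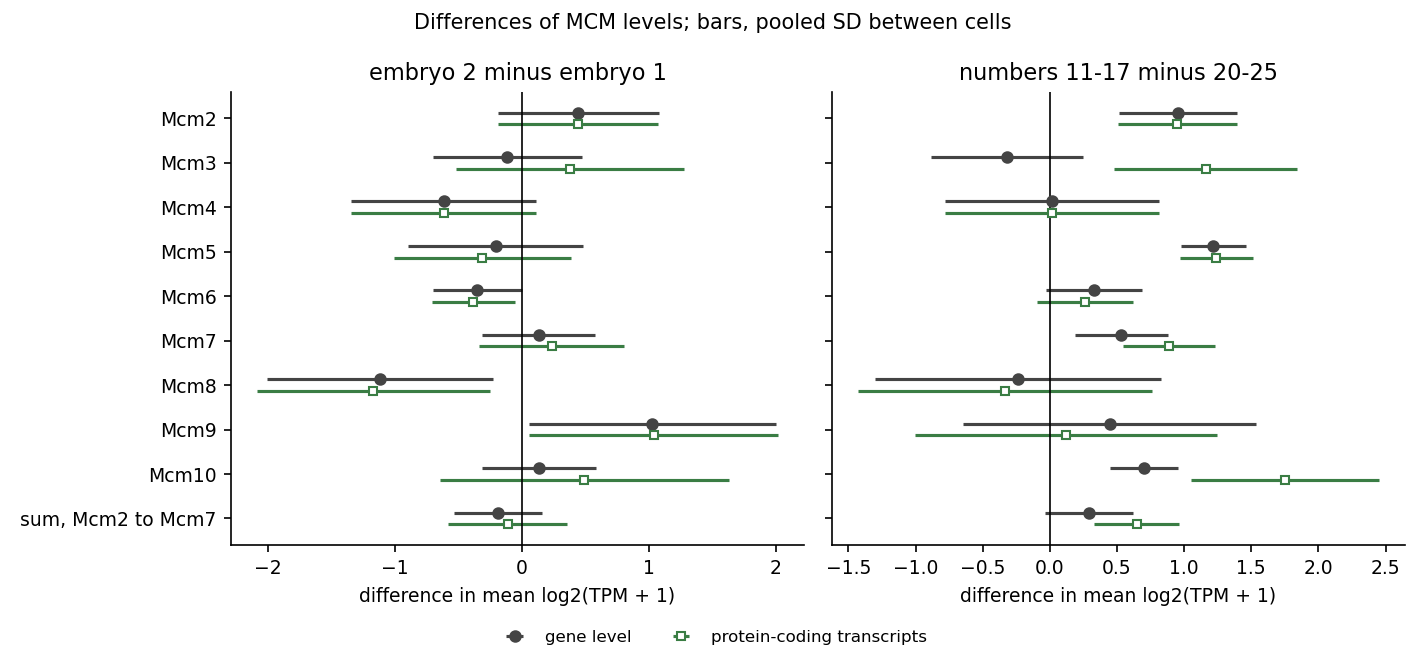
Difference in mean log2(TPM + 1) of each MCM gene and of the Mcm2 to Mcm7 sum between embryos (left) and between number ranges (right), from all transcripts and from protein-coding transcripts, with the pooled SD between cells as bars. On the left 7 of 9 gene-level points lie within 1 SD of 0, and on the right those of Mcm2, Mcm5, Mcm7 and Mcm10 lie above 0 by more than their bars.

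Across the 9 cells most pairs of ring genes were positively correlated, with low medians. Of 15 pairs of ring genes 11 had a positive Pearson r at the gene level, with a median of 0.29, and 14 had one on coding transcripts, with a median of 0.41. With the mean of each number range taken out, the medians were 0.01 and 0.21. The cells share embryo, protocol and scaling, and no matching value over other gene pairs was computed. These values are therefore descriptions and show no trait of the ring genes. Among 6168 other protein-coding genes whose average log2(TPM + 1) reached 3 or more, those most like the summed Mcm2 to Mcm7 level over the 9 cells were Klf11 (r = 0.98), Nob1 (0.94), Gps1 (0.93), Pisd (0.93) and Lgals8 (0.92). All 5 were less like the coding sum, with r from 0.79 to 0.87. They were picked as the highest of 6168 values over only 9 cells, of which 11 were above 0.9. Their r is therefore a description and shows no link to the ring genes.

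The DNA libraries gave replication calls at the MCM genes themselves in the same cells. Mcm2 on chromosome 6 and Mcm9 on chromosome 10 lie outside the 17 chromosomes of the replication table, and 7 genes could be read. None of the 7 was called replicated in any embryo 1 cell, where at most 3.54% of bins were so called. Such a cell may lie before or after S phase, so these calls do not show whether the genes had been copied. In embryo 2, Mcm3, Mcm4, Mcm6, Mcm8 and Mcm10 were replicated in all 6 cells. Mcm7 was replicated in 5 cells and had no call in cell 5. Mcm5 was replicated in 5 cells and unreplicated in cell 6, the cell with a replicated share of 62.4%. Of the 6 loci with a call in every embryo 2 cell, 5 were thus replicated in all, beside 63.6% of all 41762 genes and 75.5% of 11091 genes with a mean above 1 TPM.

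Around these loci the replicated stretch differed in length. The nearest unreplicated bin lay between 1468 and 50205 kb from Mcm7 and between 963 and 10763 kb from Mcm4, depending on the embryo 2 cell. It lay between 216 and 876 kb from Mcm8, between 360 and 1040 kb from Mcm6 and at most 632 kb from Mcm5. In embryo 2 cell 6, where Mcm5 was unreplicated, its level was 36.5 TPM, between the 27.0 and 44.2 TPM of the replicated cells of the same number range.

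The genes that load, activate and accompany the helicase were read from lists that had been written with earlier results of these data known. All 28 passed the mean of 1 TPM. Between embryos 2 were higher by 1 log2 unit or more (Orc5 and Mtbp), beside 7.69% of all genes, and 1 was lower (Gins3), beside 10.7%. In 1 of the 28, Orc5, every embryo 2 cell was higher, beside 0.843% of all genes. Mtbp and Gins3 were named after their values were seen. The median difference over the 28 was 0.10, beside -0.04 over all genes. Orc5, a subunit of the origin recognition complex, measured 15.7, 17.4 and 11.9 TPM in the embryo 1 cells, and those of embryo 2 measured 28.6, 28.4, 52.2, 27.6, 77.6 and 39.7 TPM. Its difference of 1.35 (pooled SD 0.52) was 0.82 within the numbers 11 to 17 and 1.61 within 20 to 25, and it stayed between 1.15 and 1.46 when any 1 cell was left out.

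The highest of the remaining genes in each list did not separate the embryos. Among the 6 origin recognition genes Orc4 was between 49.4 and 447.0 TPM. Of the loading factors Cdc6 and Cdt1 and their inhibitor geminin, Gmnn was the highest, between 162.6 and 394.1 TPM. Of the 5 partners of the active helicase Cdc45 led, between 44.95 and 100.4 TPM. Of the 7 activation genes Dbf4, the regulatory subunit of the Cdc7 kinase, was between 57.1 and 149.9 TPM. Of the 4 genes for proteins that bind MCM subunits or are related to them, Hrob, known to act with MCM8 and MCM9, was between 56.8 and 129.3 TPM. Of the 3 fork protection genes Tipin was between 67.9 and 342.7 TPM.

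Between the number ranges 4 of the 28 were higher in every cell numbered 11 to 17, beside 6.13% of all genes, and 1 was lower, beside 1.24%. The median difference was 0.33 over the 28 and 0.29 over all genes, and these counts were not repeated after another scaling. These 5 genes were named after their values were seen. Cdt1, which brings the MCM ring to origins, was higher by 0.85 (pooled SD 0.20). Topbp1 was higher by 0.98, Timeless by 1.01 and Recql4, listed at 0 in 3 cells, by 1.61. Orc4 was lower, at 78.6, 54.9 and 49.4 TPM in the lower range against 139.4 to 447.0 TPM in the upper, a difference of -1.82 (pooled SD 0.53).

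**Figure D5:**
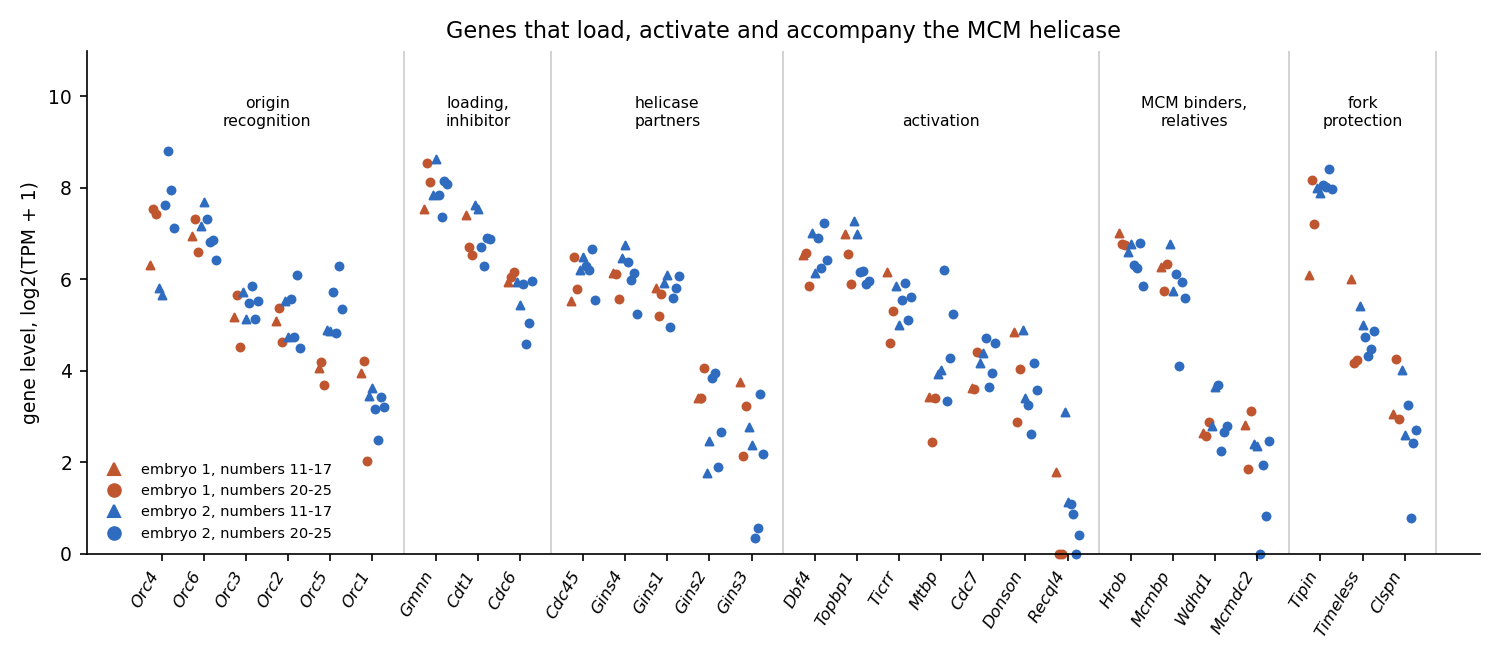
Level of 28 genes that act with the MCM helicase on the log2(TPM + 1) scale in the 9 blastomeres, grouped by role and ordered by mean TPM within each group. Orc5 is the gene in which every embryo 2 cell lies above every embryo 1 cell, and Orc4 has its triangles below its circles.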

How the data were processed

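Single blastomeres of 2 mouse 8-cell embryos gave a DNA and a total RNA library each, and 9 of 13 labelled cells had columns that were analysed here. The other 4 cells were not analysed here, and 14 further columns in each table belonged to no label of the series and were not used. The TPM values were deposited as made by the authors, who took an equal number of reads per cell, used Hisat for alignment to mm10 and estimated genes and transcripts with RSEM against GENCODE M25 within ramdaq. The deposited replication score per 40-kb bin was made by the authors with BWA 0.7.17-r1188, as the submitters' processing notes give it, and AneuFinder, and was 1 (replicated), -1 (unreplicated) or 0 (no call). TPM keeps no read counts per gene, so no counting interval was given.

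Gene symbols and transcript types were taken from GENCODE M21 on the same build, which matched 55227 of 55487 genes and 141469 of 142699 transcripts. Levels were compared on the log2(TPM + 1) scale among 13648 genes with a mean above 1 TPM, as the difference of means beside the pooled SD between cells and as a count of genes whose groups did not overlap. A gene was taken as replicated where the mean call of its bins was positive. No p-value was computed, because cells of an embryo are not replicates. The script for the differences was tested on simulated data with known changes. No 2 RNA columns were identical. The named genes were the 9 members, the genes of the helicase lists that differed between embryos both by 1 log2 unit and without overlap, the highest other gene of each list, and the 5 genes most like the summed ring level. Mtbp, Gins3, Cdt1, Topbp1, Timeless, Recql4 and the range difference of Orc4 fall outside this rule and were chosen after their values were seen. The members, lists and tests were chosen with earlier results of these data known. Alternatives were another pseudocount, 2 other scalings, coding transcripts only, other filters, single number ranges or embryos, and leaving out each cell. The tools were pandas 2.3.3 and numpy 2.4.6 under Python 3.11.15.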

Additional observations from a re-analysis of the deposited data

Results flagged for a closer look

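In the 6 cells of embryo 2, the embryo with more than 3 analysed cells, 35 measures were searched for a cell that stood apart from the others. Chance gives about 1 in 20 for independent measures, and 4 were found. The measures on Mcm4 are not independent, because all its transcripts are coding and its share rests on the same value. The count of 4 is therefore no measure of an excess over chance. The Mcm4 level of 107.4 TPM in embryo 2 cell 7 stood above the other 5 cells, which lay between 21.6 and 42.2 TPM, and the value was the same on coding transcripts, 107.4 TPM. The Mcm4 share of the Mcm2 to Mcm7 sum was 16.7% in that cell and between 5.38 and 8.90% in the others. Of this Mcm4 level, 67.1 TPM came from Mcm4-202, and on coding transcripts of at least 2000 bases the cell did not stand apart. The Mcm2 share of the sum was 18.8% in embryo 2 cell 2 and between 9.82 and 12.6% in the other cells.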

How the results depend on the processing

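The median embryo difference over the 9 MCM genes moved from -0.11 to 0.24 on protein-coding transcripts and lay between -0.20 and 0.10 when 1 cell was left out. The embryo difference of the summed Mcm2 to Mcm7 level was 0.28 within the cells numbered 11 to 17, against -0.19 over all cells, and lay between -0.27 and -0.08 when 1 cell was left out. The number range difference of that sum, 0.29, was 0.65 on protein-coding transcripts, 0.74 on those of at least 2000 bases and -0.18 within embryo 1, and lay between 0.19 and 0.38 when 1 cell was left out. On protein-coding transcripts the mean shares in the sum were 15.5% for Mcm2, 11.5% for Mcm3, 13.5% for Mcm4 and 33.4% for Mcm6, and on those of at least 2000 bases 16.6% for Mcm2, 12.2% for Mcm3 and 35.8% for Mcm6. With 1 cell left out, the mean shares over all transcripts lay between 10.4 and 12.2% for Mcm2, 30.9 and 34.4% for Mcm3, 8.48 and 9.89% for Mcm4, 9.004 and 10.8% for Mcm5, 22.95 and 24.5% for Mcm6, and 12.4 and 13.5% for Mcm7. Among the differences of single genes that were larger than their SD, 2 changed sign, Mcm9 between embryos within the numbers 11 to 17 (-0.70) and Mcm7 between number ranges within embryo 1 (-0.10). With a pseudocount of 0.1 TPM the embryo difference of Mcm9 was 2.09. The causes were not tested. The count of loci replicated in all 6 embryo 2 cells kept within 1.5 times of 5 when the bin of the start site or all bins within 200 kb were read. The limit of 2000 bases and the coding level of single genes were chosen after seeing the data. No paired test was made, because no result comes from a test. The reads behind a TPM value are not given by the table, so the counting error of the low genes Mcm8 and Mcm9 was not estimated.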
